A study of Mus with 4 samples.

Results

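Notch signalling in the heart of the newborn mouse was examined through 10 genes: the receptors *Notch1*, *Notch2*, *Notch3* and *Notch4*, the ligands *Dll4* and *Jag1*, the effectors *Hey1*, *Hey2* and *Hes1*, and the endocardial growth factor gene *Nrg1*. They were chosen by name and found by Ensembl gene ID, with the version suffix dropped, among the 55487 IDs of the RNA-seq table, and all 10 were present. There were 4 libraries of heart tissue collected at P0, 2 labelled WT and 2 labelled miR-187, from mice on a C57BL/6J background. The miR-187 mice overexpress this miRNA from a knock-in at *Rosa26*, where 1 copy of mouse miR-187 is placed under the *Tek* (*Tie2*) promoter, which is active in endothelial cells and in some blood cells; the WT mice carry no insertion. Homozygous (KI/KI) animals are named for RNA-Seq in the study's methods, while the sample labels give neither zygosity nor sex, nor how many hearts entered a library. The methods also speak of isolated cardiac endothelial cells for RNA-Seq, whereas the labels name heart as the source. Which of these applies could not be checked here, because gene names were known for these 10 IDs alone and markers of other cell types were not analysed.

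Notch receptors are transmembrane proteins that are cut when a ligand on a neighbouring cell binds them, which frees an intracellular domain to enter the nucleus and activate target genes with the DNA-binding protein RBPJ. Hey and Hes proteins are transcriptional repressors of the basic helix-loop-helix class and are among the best known of those targets. In the developing heart the pathway works in the endocardium during valve formation and trabeculation, in arterial endothelium and in the smooth muscle around vessels, and Nrg1 is a signal from the endocardium to ErbB receptors of the cardiomyocytes.

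Expression is given as the authors' FPKM (fragments per kilobase, relative to the fragments mapped in the library), which is scaled to transcript length, so that levels can be set against each other between genes. All 10 genes passed the filter for low values, a mean no lower than 1 FPKM, as did 14325 IDs in all. In these bulk samples, fewer cells of a type and less RNA per cell cannot be told apart. Nothing in the labels says that replicates came from separate animals, so p-values rest only on the spread between these samples, which may be technical. For each gene that spread is taken mostly from other tested genes and only in part from its own values.

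The libraries differed in depth and at the low end of expression. Although the values carry no counts, low values formed by equal numbers of fragments differ between libraries by the depth ratio, and the commonest ratio in each of the 6 pairs of libraries gave 1 consistent set of relative depths. Taking WT replicate 2 as 100%, depth was 83.7% in WT replicate 1, 85.0% in miR-187 replicate 1 and 47.2% in miR-187 replicate 2. The 1 FPKM mark was reached by 17047 and 15021 IDs in the replicate 1 libraries of WT and miR-187, and by 13270 and 13524 in the replicate 2 libraries. IDs that reached 10 FPKM in a single library and exceeded every other library there 10-fold numbered 16 in miR-187 replicate 2 and between 0 and 4 in the rest. None of the 10 genes shared its values with another ID.

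The Notch pathway genes were of low to middling abundance. Their means over the 4 libraries ran from 1.29 FPKM for *Nrg1* to 7.50 FPKM for *Notch1*, which lay above 10.6% and 67.8% of all tested genes, respectively. From the top, the order by mean was *Notch1*, *Hes1* (6.21 FPKM), *Jag1* (5.03 FPKM), *Notch4* (3.45 FPKM), *Hey1* (3.31 FPKM), *Hey2* (3.15 FPKM), *Dll4* (2.07 FPKM), *Notch2* (1.95 FPKM), *Notch3* (1.54 FPKM) and *Nrg1*. Every neighbour in this order overlapped the next in its range over the libraries, so adjacent ranks do not differ beyond the spread. Some wider steps overlapped too: the lowest *Notch1* value, 5.83 FPKM, was above the highest value of *Notch4*, 4.38 FPKM, but below the highest values of *Hey1*, 7.23 FPKM, and *Hey2*, 6.52 FPKM. The leading gene varied between libraries. *Notch1* had the highest level in both replicate 1 libraries, *Jag1* in WT replicate 2 and *Hes1* in miR-187 replicate 2.

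**Figure D1:**
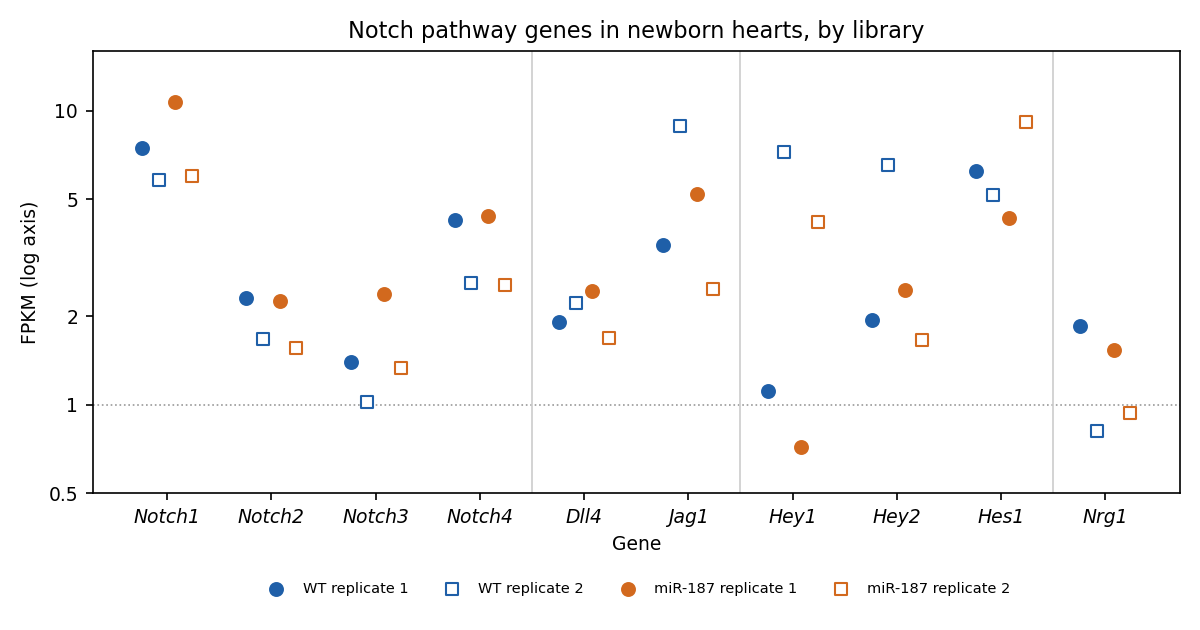
FPKM (log axis) of the 10 Notch pathway genes in each library, with WT in blue, miR-187 in orange, replicate 1 as filled circles and replicate 2 as open squares; each point is 1 library and the dotted line marks 1 FPKM. The filled circles of the 4 receptors and of *Nrg1* lie above the open squares in both colours, *Hey1* shows the converse, and in no gene do the blue and orange points separate.

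To ask whether raised miR-187 changes this pathway in the newborn heart, each gene was compared between the groups. No difference between miR-187 and WT hearts passed the test in these genes: 0 of 10 had an adjusted p under 0.05 (limma, Benjamini-Hochberg adjustment over all 14325 genes tested), where 0.00698% of all tested genes did, a single gene. All 10 adjusted p-values were 1.00 after rounding, and 0 of 10 had an unadjusted p under 0.05 (limma). Only 447 of all 14325 tested genes had one, so a count of 0 does not set these 10 genes apart. With 1 library left out, so that its group held a single library assumed to vary like the others, the count was 3 without WT replicate 1, where 926 of 13813 tested genes had such a p, and 2 without miR-187 replicate 1, where 905 of 14175 had one. It was 1 without miR-187 replicate 2, beside 471 of 14612, and 0 without WT replicate 2, beside 525 of 14762. The adjusted p of each of the 10 genes stayed above 0.05 in these fits (limma). The values of the groups overlapped in each of the 10 genes, whereas 25.5% of all tested genes had groups that did not overlap. By their means, 4 genes were on the higher side in miR-187 and 6 on the lower side. The median difference was -0.02 on the log2(FPKM + 1) scale, beside -0.04 over all tested genes, and the median size without regard to sign was 0.19, beside 0.21. On this scale, which is used for all differences below, the change of genes with few FPKM is understated. Standard errors lay between 0.35 and 0.51. They rest mostly on the spread of other tested genes of like level (prior degrees of freedom 19.5), and the intervals given with each gene hold under that sharing. For genes with a wide spread of their own the intervals are narrower than those libraries alone would give. *Hey1* had a standard error of 0.51 beside a within-group standard deviation of 1.27, *Jag1* 0.41 beside 0.71 and *Hey2* 0.40 beside 0.70.

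The receptors were compared first. *Notch1* (ENSMUSG00000026923.15, chr2:26457902-26503822 of GRCm38) is the main receptor of arterial endothelium and endocardium. In WT it measured 7.46 FPKM (replicate 1) and 5.83 FPKM (replicate 2), and in miR-187, in the order used from here on, 10.7 and 5.98 FPKM. The highest library belonged to miR-187, but the other miR-187 library lay between the WT values. The WT mean was 6.64 ± 1.15 FPKM and the miR-187 mean 8.36 ± 3.36 FPKM (SD, n = 2 per group). The difference in log2 was 0.25, with a 95% interval from -0.53 to 1.03 (limma). It turned to -0.12 without miR-187 replicate 1.

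*Notch4* (ENSMUSG00000015468.14, chr17:34564286-34588543) is a receptor expressed mostly in endothelium. The WT libraries gave 4.25 and 2.61 FPKM, the miR-187 libraries 4.38 and 2.55 FPKM. The groups covered almost the same range, and the libraries divided by replicate number instead. Mean expression in WT was 3.43 ± 1.16 FPKM and the miR-187 mean 3.47 ± 1.30 FPKM (SD, n = 2 per group), a log2 difference of 0.01 with an interval from -0.74 to 0.76. It turned to -0.26 without WT replicate 2 and to -0.29 without miR-187 replicate 1.

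*Notch2* (ENSMUSG00000027878.11, chr3:98013538-98150367) is a receptor with known roles in smooth muscle of the outflow vessels. It measured 2.30 and 1.67 FPKM in the WT hearts, compared with 2.26 and 1.57 FPKM in the miR-187 hearts. Its pattern was that of *Notch4*, with like values in both groups and higher ones in the replicate 1 libraries. The log2 difference was -0.04, with an interval from -0.76 to 0.69, and its sign turned with quantile normalization (0.0019), without WT replicate 1 (0.11) and without miR-187 replicate 2 (0.13). *Notch3* (ENSMUSG00000038146.8, chr17:32120820-32166896) is the receptor of vascular smooth muscle and pericytes. WT hearts gave 1.40 and 1.02 FPKM, and miR-187 hearts gave 2.39 and 1.33 FPKM. Only the lower miR-187 value fell within the WT range. Its log2 difference, 0.35 with an interval from -0.39 to 1.10, was the most positive of the 10 and was 0.54 with a pseudocount of 0.1, and miR-187 was higher within both replicate numbers, by 0.50 and 0.21. The difference was 0.08 without miR-187 replicate 1, below the differences of *Hes1* (0.60) and *Hey1* (0.32) in the same libraries, and it was also not the most positive without WT replicate 2 (0.23) or without miR-187 replicate 2 (0.62). With median centring, TMM factors or quantile normalization the *Notch3* values of the groups no longer overlapped, as was so for 27.0%, 26.8% and 29.3% of all tested genes, respectively, and the adjusted p was still 1.00 in each (limma).

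Together the receptors summed to 15.4 and 11.1 FPKM in the WT libraries, compared with 19.8 and 11.4 FPKM in the miR-187 libraries. *Notch1* made up between 48.4% and 54.3% of this sum, a share whose groups overlapped. *Notch3* held 9.09% and 9.16% in WT and 12.1% and 11.7% in miR-187. *Notch2* held 14.9% and 15.0% in WT and 11.4% and 13.7% in miR-187, and *Notch4* held 27.6% and 23.4% in WT and 22.2% and 22.3% in miR-187. The groups thus did not overlap in 3 of the 4 shares, with *Notch3* higher and *Notch2* and *Notch4* lower in miR-187, where 22.6% of other tested genes had a ratio to the receptor sum that did not overlap. The shares of a library add up to 100%, so they are not independent of each other, and nothing particular to the receptors is read from this count. The ratio of *Notch1* to *Notch3*, which does not depend on the scaling of a library, was 5.32 and 5.72 in WT and 4.50 and 4.48 in miR-187. These ratios did not overlap between the groups; however, the same held for 27.9% of the ratios of *Notch1* to each other tested gene.

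**Figure D2:**
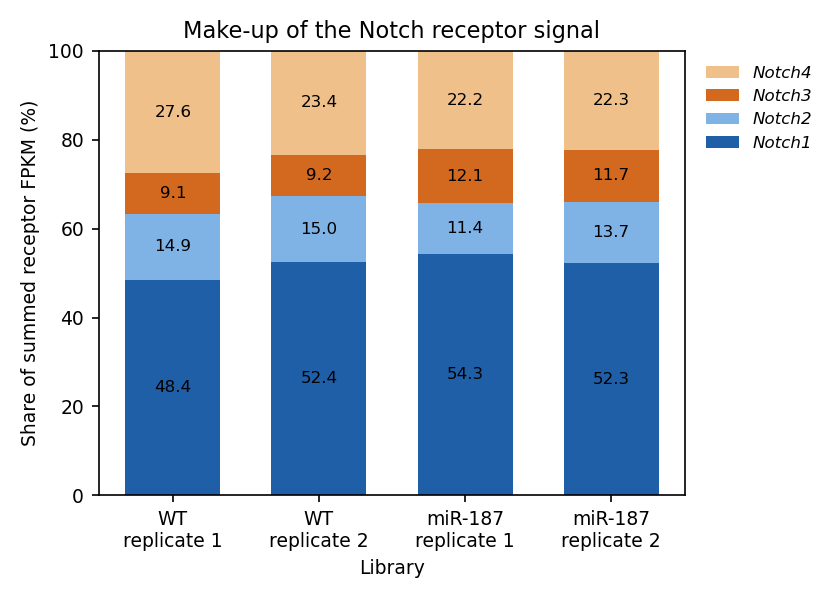
Share (%) of each Notch receptor in the summed FPKM of the 4 receptors, with 1 bar per library and the share printed in each segment. *Notch1* holds 48.4% to 54.3% in each library and is the largest segment throughout, followed by *Notch4*.

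The ligands followed. *Dll4* (ENSMUSG00000027314.6, chr2:119325784-119335666) is the ligand of arterial endothelium and of sprouting vessels. It was the steadiest of the 10 genes, measuring 1.92 and 2.22 FPKM in the WT libraries, compared with 2.43 and 1.69 FPKM in the miR-187 libraries. The miR-187 libraries held both the highest and the lowest value. On average WT had 2.07 ± 0.212 FPKM and miR-187 had 2.06 ± 0.527 FPKM (SD, n = 2 per group), and the log2 difference was -0.01 with an interval from -0.73 to 0.71. Its sign turned with median centring, TMM factors and quantile normalization, and also without WT replicate 2 (0.057) and without miR-187 replicate 2 (0.16).

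*Jag1* (ENSMUSG00000027276.7, chr2:137081451-137116520) encodes a ligand made in endothelium and smooth muscle, and its loss in humans underlies Alagille syndrome with defects of the outflow tract. In WT hearts it measured 3.50 and 8.91 FPKM, in miR-187 hearts 5.23 and 2.47 FPKM. WT replicate 2 stood high and miR-187 replicate 2 low, with the replicate 1 libraries between them. The WT mean was 6.20 ± 3.83 FPKM and the miR-187 mean 3.85 ± 1.95 FPKM (SD, n = 2 per group). The log2 difference of -0.52 had an interval from -1.36 to 0.32, and it went to 0.05 without WT replicate 2. Within the replicate 1 libraries miR-187 was higher by 0.47, and within the replicate 2 libraries it was lower, with a difference of -1.51. The ratio of *Dll4* to *Jag1* was 0.549 and 0.249 in WT and 0.466 and 0.683 in miR-187, without a separation of groups.

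Among the effectors the spread between replicates was wide. *Hey2* (ENSMUSG00000019789.9, chr10:30832359-30842783) is a repressor known from compact ventricular myocardium and arterial endothelium. Its WT libraries measured 1.94 and 6.52 FPKM, its miR-187 libraries 2.46 and 1.66 FPKM. WT replicate 2 alone stood apart, above every other library. Averaged over replicates, WT had 4.23 ± 3.24 FPKM and miR-187 had 2.06 ± 0.563 FPKM (SD, n = 2 per group). The log2 difference of -0.63 was the most negative of the 10, with an interval from -1.47 to 0.20 and the smallest unadjusted p of these genes, 0.129 (limma; adjusted p = 1.00). A smaller p was found for 1209 of the tested genes. Without WT replicate 2 the difference was 0.04. With any library left out, *Hey2* was not the most negative of these genes. *Hey1* was lower without WT replicate 1 (-1.46 against -1.31) and without miR-187 replicate 2 (-1.28 against -0.445). *Jag1* was lower without miR-187 replicate 1 (-0.94 against -0.82), and *Nrg1* without WT replicate 2 (-0.36). With quantile normalization *Notch3* had the smallest unadjusted p (limma).

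*Hes1* (ENSMUSG00000022528.8, chr16:30065357-30067796) is a widely expressed repressor that also responds to signals other than Notch. The level was 6.23 and 5.16 FPKM in the WT hearts, compared with 4.32 and 9.12 FPKM in the miR-187 hearts. The WT values lay inside the range of the miR-187 values. The WT mean was 5.70 ± 0.758 FPKM and the miR-187 mean 6.72 ± 3.40 FPKM (SD, n = 2 per group), with a log2 difference of 0.14 and an interval from -0.65 to 0.92. It was -0.33 without miR-187 replicate 2, the shallowest library, in which *Hes1* was the most abundant of the 10 genes.

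*Hey1* (ENSMUSG00000040289.8, chr3:8663359-8667038), known from endocardium, arterial endothelium and atrial myocardium, was the most variable gene. WT hearts measured 1.11 and 7.23 FPKM, and miR-187 hearts 0.716 and 4.19 FPKM. Both replicate 2 libraries were high and both replicate 1 libraries low, whatever the group. Its highest value was 10.1 times its lowest, and its within-group standard deviation on the log2 scale, 1.27, exceeded that of 99.4% of tested genes. *Jag1* and *Hey2* followed, *Hey2* at 94.8% and *Jag1* just above it. Averaged over its libraries, WT had 4.17 ± 4.32 FPKM and miR-187 had 2.45 ± 2.45 FPKM (SD, n = 2 per group). Their log2 difference was -0.48, with an interval from -1.55 to 0.58. It fell to -1.46 when WT replicate 1 was left out and rose to 0.50 without WT replicate 2, and it was also positive, at 0.32, without miR-187 replicate 1. When libraries of the same replicate number were set against each other, miR-187 was lower in both, with differences of -0.30 and -0.67. The annotation places another RefSeq gene, LOC115489673, across 115 bases of the *Hey1* locus.

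*Nrg1* (ENSMUSG00000062991.9, chr8:31807452-32891609) spans 1084158 bases and encodes the neuregulin through which endocardium drives trabeculation. It was the least abundant of the 10, at 1.85 and 0.813 FPKM in the WT libraries, compared with 1.54 and 0.939 FPKM in the miR-187 libraries. Both miR-187 values fell within the WT range. The WT mean was 1.33 ± 0.736 FPKM and the miR-187 mean 1.24 ± 0.424 FPKM (SD, n = 2 per group), a log2 difference of -0.04 with an interval from -0.80 to 0.73, and the sign turned with median centring (0.0018), without WT replicate 1 (0.29) and without miR-187 replicate 2 (0.16). Its ratio to *Notch1* was 0.249 in WT replicate 1 and between 0.140 and 0.157 in the other libraries. There are 9 further RefSeq genes within or across the *Nrg1* locus, and for *Notch1* and *Notch3* there are 2 each. *Notch2*, *Dll4* and *Hey2* have 1 each, and that of *Hey2*, Gm51763, covers 3066 of its 10425 bases. Some reads at these loci could thus be assigned to either gene, since the use of strand was not stated.

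**Figure D3:**
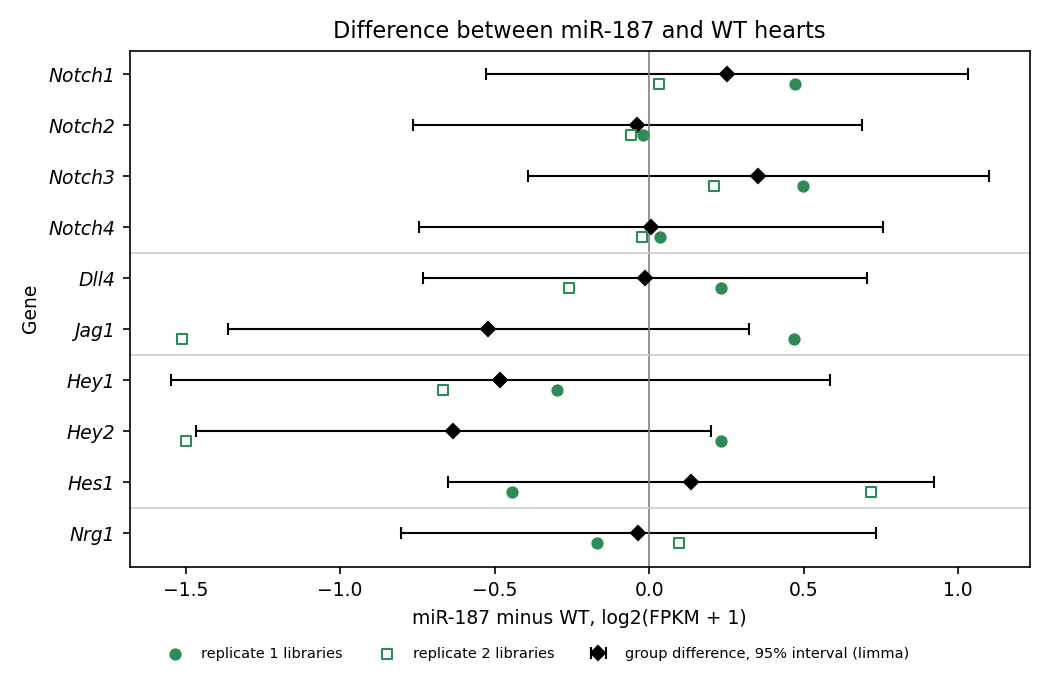
Difference between miR-187 and WT hearts for each gene in log2(FPKM + 1); diamonds with bars are the group difference with its 95% interval (limma, n = 2 each), and green symbols are the differences within the replicate 1 (circles) and replicate 2 (squares) libraries. Every interval spans 0, and for *Jag1*, *Hey2*, *Hes1*, *Dll4*, *Notch4* and *Nrg1* the green symbols lie on opposite sides of 0.

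Of the 10 genes, 4 had differences of the same sign within both replicate numbers: *Notch1* (0.47 and 0.03), *Notch3* (0.50 and 0.21), *Notch2* (-0.02 and -0.06) and *Hey1* (-0.30 and -0.67). The other 6 genes had differences of opposite sign in the replicate 1 and the replicate 2 libraries.

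The genes were next compared between replicates, because the receptors divided by replicate number. All 4 receptors and *Nrg1* were higher in both replicate 1 libraries than in both replicate 2 libraries, and *Hey1* was lower. These 6 of 10 genes had no overlap between replicate numbers, where 34.6% of tested genes had none. The 5 with higher replicate 1 values compare with 23.4% of tested genes in that direction. The share depended on the level of expression: both replicate 1 libraries were above both replicate 2 libraries in 40.2% of genes with a mean of 1 to 2 FPKM, 27.7% at 2 to 5 FPKM and 16.7% at 5 to 10 FPKM. *Notch2*, *Notch3* and *Nrg1* fall in the first range, *Notch4* in the second and *Notch1* in the third.

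In size, *Notch2* was nearest to the other genes of its level. On the log2 scale, its replicate 1 value exceeded replicate 2 by 0.31 in WT and by 0.35 in miR-187, beside medians of 0.25 and 0.23 at 1 to 2 FPKM. *Notch3*, in the same range, was higher in replicate 1 by 0.25 in WT, close to the median, and by 0.54 in miR-187. *Nrg1*, also in that range, was higher by 0.65 in WT and by 0.39 in miR-187. *Notch4* was higher in replicate 1 by 0.54 in WT and by 0.60 in miR-187, where the medians at 2 to 5 FPKM were 0.01 and 0.28. *Notch1* was higher by 0.31 in WT and by 0.75 in miR-187, beside medians of -0.15 and 0.25 at 5 to 10 FPKM. Thus *Notch1*, *Notch2*, *Notch4* and *Nrg1* were above the median of their level in both groups, and *Notch3* was clearly above it in miR-187 alone. *Dll4*, with -0.14 in WT and 0.35 in miR-187, kept no common direction. The libraries also divided by replicate number in composition: the most abundant ID of each library took 18.6% and 21.0% of summed FPKM in the replicate 1 libraries of WT and miR-187, but 4.45% and 5.05% in the replicate 2 libraries. The labels do not say what the replicate numbers stand for, and the part of this difference in composition in the pattern was not tested.

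*Hey1* stood against that trend. Its replicate 2 value was 6.50 times the replicate 1 value in WT and 5.85 times in miR-187. Only 7 of 14325 tested genes, *Hey1* among them, had a ratio of at least 5.85 in both groups. At 2 to 5 FPKM, 7.74% of genes had both replicate 2 libraries above both replicate 1 libraries. The related gene *Hey2* did not share this pattern: it was higher in replicate 2 in WT, with a replicate 1 minus replicate 2 difference of -1.35, and lower in replicate 2 in miR-187, with a difference of 0.38. The ratio of *Hey2* to *Hey1* accordingly moved over 8.65-fold, from 1.75 and 0.902 in WT replicates 1 and 2 to 3.43 and 0.397 in miR-187, and in both groups it was higher in replicate 1.

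**Figure D4:**
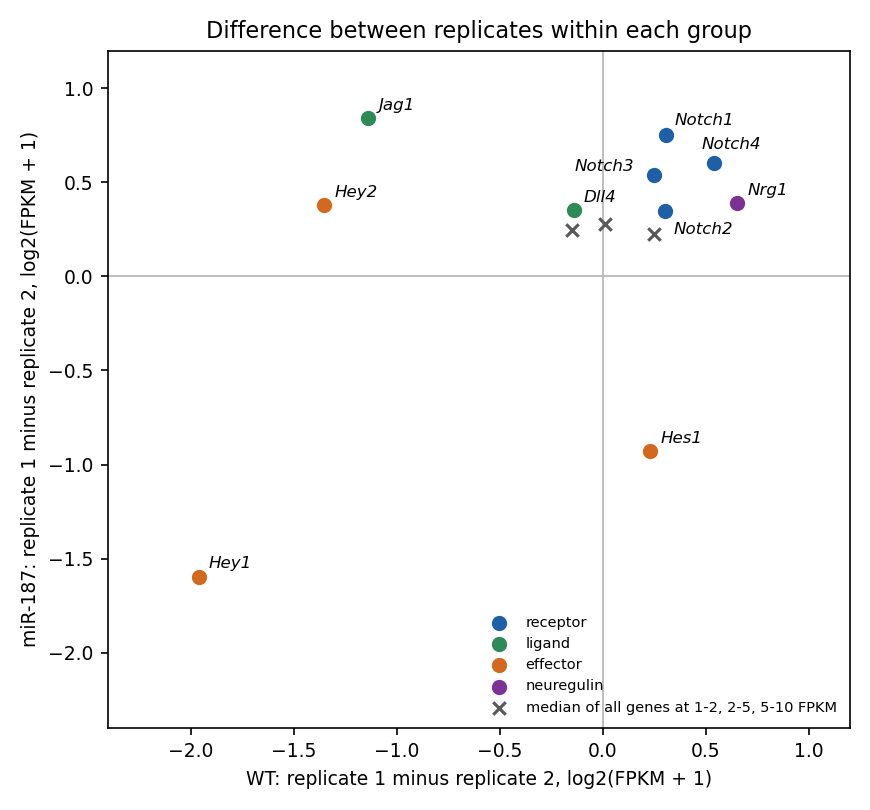
Replicate 1 minus replicate 2 in log2(FPKM + 1), with WT on the horizontal and miR-187 on the vertical axis; each point is 1 gene, coloured by role, and crosses are the medians of all genes at 1 to 2, 2 to 5 and 5 to 10 FPKM. The receptors and *Nrg1* lie in the upper right corner, and *Hey1* alone lies far into the lower left, at -1.96 and -1.60.

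By role, the effectors summed to 9.29 and 18.9 FPKM in the WT libraries, compared with 7.49 and 15.0 FPKM in the miR-187 libraries. The ligand sum was 5.42 and 11.1 FPKM in WT hearts, and 7.66 and 4.16 FPKM in miR-187 hearts. Neither sum separated the groups. In both groups the receptor sum was higher in replicate 1 and the effector sum higher in replicate 2, but the effectors did not move as 1: only *Hey1* was higher in replicate 2 in both groups, *Hey2* was lower there in miR-187 and *Hes1* was lower there in WT.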

How the data were processed

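RNA-seq libraries of P0 hearts were compared between WT and miR-187 (2 each, grouped by title). The authors deposited 1 table of FPKM values per Ensembl gene ID, without counts; the submitters' notes name the build mm10 and the tools HISAT2, StringTie and DESeq2, with no version or role given. Annotation and use of strand were not given in the sources used here. FPKM divides by the mapped total, so abundant transcripts can lower all other values. The deposited IDs carry no gene names. A RefSeq table (GRCm38.p6) holds no Ensembl IDs, so names of the 10 members come from the definition of the gene set and positions were matched by symbol (10 of 10). Other Notch and neuregulin genes, cell type markers, *Tek* and *Nipbl* were therefore not analysed here, and sequences were not used here. The members and lists were chosen with earlier results of these data known.

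IDs averaging 1 FPKM or more were tested on the log2(FPKM + 1) scale with limma 3.58.1 in R 4.3.3 (lmFit, eBayes with a mean-variance trend, no replicate block), two-sided, with Benjamini-Hochberg adjustment and a threshold of 0.05. The procedure was run on simulated normal values whose spread followed the trend of the real data. Such a run cannot vouch for genes with a spread far from that trend, such as *Hey1*. An exact permutation test of 2 against 2 libraries cannot give a p below 0.333 and was not used. All 10 members were to be named. Relative depth was read from the fullest bin (0.002 wide in log2) of the ratios of values under 0.2 FPKM, for 6 pairs of libraries, whose ratios closed to within 1 bin; absolute depth is unknown, so no interval for counting error is given. The alternatives tried were 0.1 as pseudocount, a filter at 0.1 FPKM, at 5 FPKM or absent, median centring, TMM factors (unweighted, 30% and 5% trimmed), quantile normalization, eBayes without the trend, a fit blocked on replicate number (replicate block), and each library left out in turn. Plots were made in Python 3.11.15 (matplotlib 3.10.9).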

Additional observations from a re-analysis of the deposited data

How the results depend on the processing

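The count of 0 called among the Notch pathway genes was kept under all 13 alternatives, although 3 genes alone (*Notch1*, *Hes1* and *Jag1*) were tested with a minimum mean of 5 FPKM, where their median difference was 0.14. The 1 gene called among all tested became 51 with the replicate block, 46 with a filter at 0.1 FPKM, and 0 with a minimum mean of 5 FPKM, without a filter and with quantile normalization. For the first 2 settings the prior degrees of freedom were infinite, so a gene's own spread did not enter its test; the called gene, with a mean of 4.86 FPKM, was not among those tested at 5 FPKM, and the cause of the other losses was not tested. Median centring, TMM factors and quantile normalization each gave 1 of 10 Notch pathway genes without overlap between groups, *Notch3*, against 27.0%, 26.8% and 29.3% of all tested genes. Signs turned for *Dll4* with median centring (0.024), TMM factors (0.011) and quantile normalization (0.058), for *Nrg1* with median centring (0.0018) and for *Notch2* with quantile normalization (0.0019); the other 78 single-gene values under these settings kept their direction and side of the threshold.

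With 1 library left out, the lone library of its group is assumed to vary like the others, and the prior degrees of freedom were again infinite. Genes called among all tested ran from 24 to 96, Notch pathway genes without overlap from 2 to 6 (against 60.1% to 67.5% of all genes), and their median difference from -0.20 to 0.18. The lowest and highest single-gene differences were -0.12 and 0.63 for *Notch1*, -0.21 and 0.13 for *Notch2*, 0.08 and 0.62 for *Notch3*, -0.29 and 0.31 for *Notch4*, -0.19 and 0.16 for *Dll4*, -1.09 and 0.049 for *Jag1*, -1.46 and 0.50 for *Hey1*, -1.31 and 0.043 for *Hey2*, -0.33 and 0.60 for *Hes1*, and -0.36 and 0.29 for *Nrg1*. The smallest adjusted p of these genes was 0.198, for *Hey1* without WT replicate 1 (limma).

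Across tested genes, libraries with the same number deviated from their group means with a correlation of r = -0.0675. The labels tie the numbers to no shared animal or day, so no pairing was assumed. With the replicate block the log2 difference of each Notch pathway gene is the same by construction and 0 of 10 were called. Scaling to pan-endothelial markers and the counts for other Notch and neuregulin genes were not run, since gene names for these IDs were not used here.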
